A study of Mus musculus with 4 samples.

Results

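The Notch pathway genes described here were 3 receptors (*Notch1*, *Notch2*, and *Notch4*), 4 ligands (*Dll1*, *Dll4*, *Jag1*, and *Jag2*), the DNA-binding factor *Rbpj*, and the target genes *Hes1* and *Hey1*. These 10 genes, of 21887 protein-coding genes on the chromosomes that carried peaks, were given by name, with no value of a peak in the rule. They were, however, chosen with earlier results of these data known. Every H3K27ac peak in the gene body plus 10 kb on each side (mouse build GRCm38) was assigned to its gene. H3K27ac, acetylation of histone H3 at lysine 27, marks active promoters and enhancers. It was profiled by ChIP-Seq in mouse liver sinusoidal endothelial cells (LSECs), the fenestrated cells that line the liver capillaries. The cells had been purified with anti-CD146 beads after collagenase perfusion of the liver. There were 2 libraries, replicates 2 and 3, of a single condition, and the input library that goes with each was not analysed here on its own. The labels name the cell type and the antibody, but no strain, genotype, age, sex, or treatment, so no groups could be compared.

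Notch signaling passes between neighbouring cells. A Delta-like or Jagged ligand on the surface of a cell binds a Notch receptor on its neighbour, the receptor is cleaved first by an ADAM protease and then by γ-secretase, and the freed intracellular domain enters the nucleus, where it joins RBPJ and Mastermind-like coactivators at target genes such as those of the Hes and Hey repressors. In endothelium the pathway is known for its part in sprouting and in arterial identity, and in liver for its part in bile duct formation.

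There were 26975 peaks in replicate 2 (median width 322 bp) and 64498 in replicate 3 (median width 345 bp). The list of replicate 3 was thus 2.39 times as long. The strength of a peak is given here as its fold enrichment, the ratio of the peak's signal to local background from the authors' peak caller. Its median was 9.76 in replicate 2 (range 2.26 to 72.0) and 8.89 in replicate 3 (range 1.90 to 219). Because the libraries differ in this range, fold enrichment is compared between genes within a library and not between the libraries. Peaks of the libraries that overlapped by at least 1 bp were joined into a shared region. Of the replicate 2 peaks, 99.2% overlapped a replicate 3 peak, and of the replicate 3 peaks, 37.7% overlapped a replicate 2 peak. The replicate 2 list was therefore nearly contained in that of replicate 3, and a region without a partner was almost always a replicate 3 region.

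The cell type label was checked against marker genes, each counted when a shared peak lay within 1 kb of a gene end. Of the LSEC markers, 9 of 12 had such a peak, against 43.4% of all protein-coding genes. The other 3, *Stab2*, *Clec4g*, and *Mrc1*, had an end peak in replicate 3 only, with a fold enrichment of up to 5.86, 4.56, and 4.15. No hepatocyte marker (0 of 8), cholangiocyte marker (0 of 5), hepatic stellate cell marker (0 of 7), or Kupffer cell marker (0 of 6) had a shared peak at a gene end. Replicate 3 alone had an end peak at 4 of these markers, *Apoa1* and *Apob* of hepatocytes (11.4 each), *Epcam* of cholangiocytes (5.86), and *Col1a1* of stellate cells (12.05), most of them stronger than those at the 3 LSEC markers. Their part in the results was not tested. Of the lymphocyte markers 1 of 6 had a shared end peak, the B cell receptor component *Cd79a*. Of the markers of arterial endothelium, where Notch signaling is active, 3 of 6 did (*Efnb2*, *Gja4*, and *Bmx*), close to the share of all genes. *Sox17* and *Cxcr4* had an end peak in replicate 3 only, and *Gja5* had none. In shared peaks at gene ends, the LSEC markers were thus above the share of all genes and the markers of the other liver cell types below it. Farther than 1 kb from either end, all 12 LSEC markers had a shared region, against 39.9% of all genes. So did 4 of 6 arterial and 2 of 6 lymphocyte markers. Among the other lists it was 1 of 8 hepatocyte (*Alb*), 1 of 5 cholangiocyte (*Cftr*), 0 of 7 stellate cell, and 1 of 6 Kupffer cell markers (*Csf1r*). These are bulk libraries, in which a mark in few cells and a weak mark in many cannot be told apart.

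A shared peak within 1 kb of a gene end was present at 7 of the 10 Notch pathway genes (70%), against 43.4% of all protein-coding genes. In replicate 2 alone the count was also 7, against 43.4% of all genes, and in replicate 3 alone it was 8, against 53.9%. The replicate 2 count nearly repeats the shared one, since 99.2% of replicate 2 peaks overlapped a replicate 3 peak. The genes without a shared peak at an end were *Dll4*, *Jag2*, and *Rbpj*, and *Dll4* was the gene added in replicate 3. Farther than 1 kb from either end, termed distal here, at least 1 shared region was present at 9 of the 10 genes, against 39.9% of all genes. *Hey1* was the gene without one. Of these 9, *Rbpj* had shared distal regions only within 1 kb of transcription starts inside the gene. The only one of *Notch4* lay within 1 kb of an end of *Gpsm3* and of *Pbx2*. At least 3 shared distal regions were present at 2 of the 10, *Notch1* and *Notch2*, against 9.04% of all genes. All 10 genes had a shared region somewhere in the window, which was common, since the median over all protein-coding genes was 1 shared region. Of the 10, *Dll1* and *Hey1* had 0 when an overlap of at least 50% of each peak was required. *Dll4* and *Jag2* had 0 in the gene body without its flanks.

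The 10 windows held 68 separate regions. Of these, 28 were shared, 11 at gene ends and 17 distal, and 40 were found in replicate 3 only, 8 at gene ends and 32 distal. No region was found in replicate 2 only. The median was 2.5 shared regions per gene, against 1 over all protein-coding genes, and 3 regions of replicate 3 only, against 1. The windows of the 10 genes were somewhat longer, with a median of 43.1 kb against 37.2 kb. Per 10 kb of window, the median was 0.484 shared regions for the pathway genes and 0.159 for all genes. Gene bodies held 22 of the 28 shared regions and the flanks held 6. By role, the receptors had 14 shared regions, the ligands 7, *Rbpj* 2, and the targets 5.

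**Figure D1:**
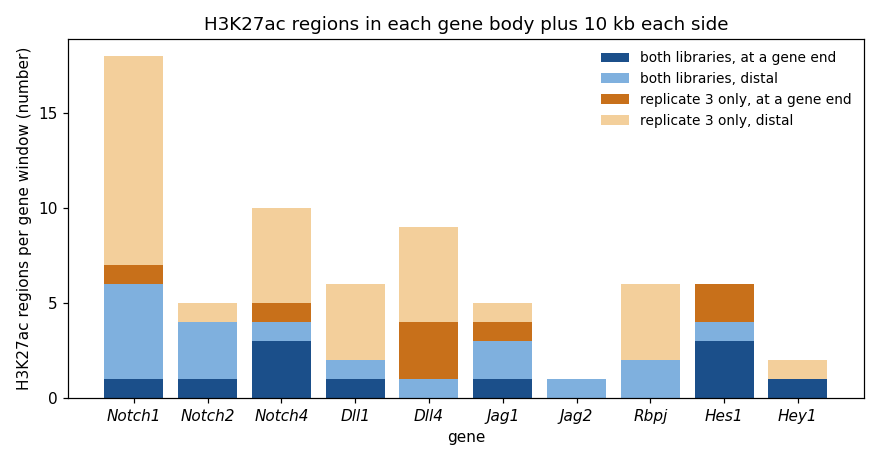
Number of H3K27ac regions (vertical axis, count) in the body plus 10 kb on each side of each Notch pathway gene (horizontal axis), stacked by library and position. *Notch1* had the most regions (18) and *Jag2* the fewest (1).

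*Notch1* encodes a receptor needed for vessel development and had the most regions of the list, 18, on chromosome 2 (gene body 26457902 to 26503822). At its promoter, the shared region at chr2:26503416-26504623 was enriched 9.49-fold in replicate 2 and 23.9-fold in replicate 3. It overlapped the long noncoding RNA gene *Gm35978* as well, and covered the *Notch1* transcription start of the RefSeq promoter table. A further 5 shared regions lay inside the gene, all distal, which placed the gene at the 97.7th percentile of all protein-coding genes for the count of shared distal regions and at the 95.4th for their number per 10 kb of window. Of its 6 shared regions, 2 remained when an overlap of at least 50% of each peak was required. The strongest was not at the promoter. At chr2:26474843-26475625, 28.2 kb from the start, enrichment was 16.9-fold in replicate 2 and 43.8-fold in replicate 3. The next, at chr2:26497861-26498677, 5.15 kb from the start, had 12.2 in replicate 2 and 39.2 in replicate 3. Both libraries thus placed these intragenic regions above the promoter. The region at chr2:26492911-26494150 was enriched 7.03-fold in replicate 2 and 26.3-fold in replicate 3. Its neighbour at chr2:26494464-26494902 had 6.78 and 11.2, and the region at chr2:26500494-26501092 had 8.13 and 12.4. These 3 regions were weaker than the promoter in replicate 2, while in replicate 3 the first of them was slightly stronger than the promoter. Another 12 regions were in replicate 3 only, and 1 of these lay at the gene end, at chr2:26502729-26503156, with a fold enrichment of 13.0.

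*Notch2*, the receptor whose loss impairs bile duct formation, spans 137 kb on chromosome 3 (98013538 to 98150367) and had 5 regions, 4 of them shared. The promoter region at chr3:98013065-98014032 was enriched 10.4-fold in replicate 2 and 39.4-fold in replicate 3. A region 13.5 kb into the gene, at chr3:98027046-98027839, had 23.2 in replicate 2 and 72.9 in replicate 3. In each library this was the strongest region of any receptor, at the 88.3rd percentile of all replicate 2 peaks and the 96.2nd percentile of all replicate 3 peaks. At chr3:98056984-98057411 enrichment was 7.66-fold in replicate 2 and 10.0-fold in replicate 3, and at chr3:98074752-98075207 it was 9.49 and 14.6. The 4 shared regions thus lay at the promoter or had their nearer edge within 61.2 kb of it. The rest of this long gene, on the 3′ side, had no peak in either library. With 3 shared distal regions *Notch2* stood at the 93.0th percentile of all genes by count, but at the 69.4th per 10 kb of its long window.

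*Notch4*, a receptor expressed mainly in endothelium, lies on chromosome 17 (34564286 to 34588543) and had 10 regions, 4 of them shared. The promoter region at chr17:34563988-34564669 was enriched 6.78-fold in replicate 2 and 16.9-fold in replicate 3. At the other end of the gene, the region at chr17:34586708-34588169 had 16.9 in replicate 2 and 43.0 in replicate 3. The mark was thus stronger near the 3′ end of *Notch4* than at its promoter, in both libraries. The neighbouring gene *Gpsm3* is close to this end. A replicate 3 peak 84 bp past it, at chr17:34588627-34588827, lay within 1 kb of an end of *Gpsm3*. Which gene the marks near this end belong to was not tested. A small region at chr17:34588303-34588568, across the 3′ end itself, had 5.49 in replicate 2 and 4.30 in replicate 3, and was the weakest shared region of the list in each library. The distal region at chr17:34591978-34592417 had 8.54 in replicate 2 and 18.2 in replicate 3. It overlapped the neighbouring gene *Pbx2* and lay within 1 kb of an end of *Gpsm3* and of *Pbx2*, so it cannot be assigned to *Notch4* alone. Among the 6 regions of replicate 3 only, the strongest lay 2.48 kb outside the gene at chr17:34561542-34561810, with a fold enrichment of 18.6. Of the 3078 replicate 3 peaks within 10% of that fold enrichment, 74.6% had a replicate 2 partner, so most peaks like it were shared.

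**Figure D2:**
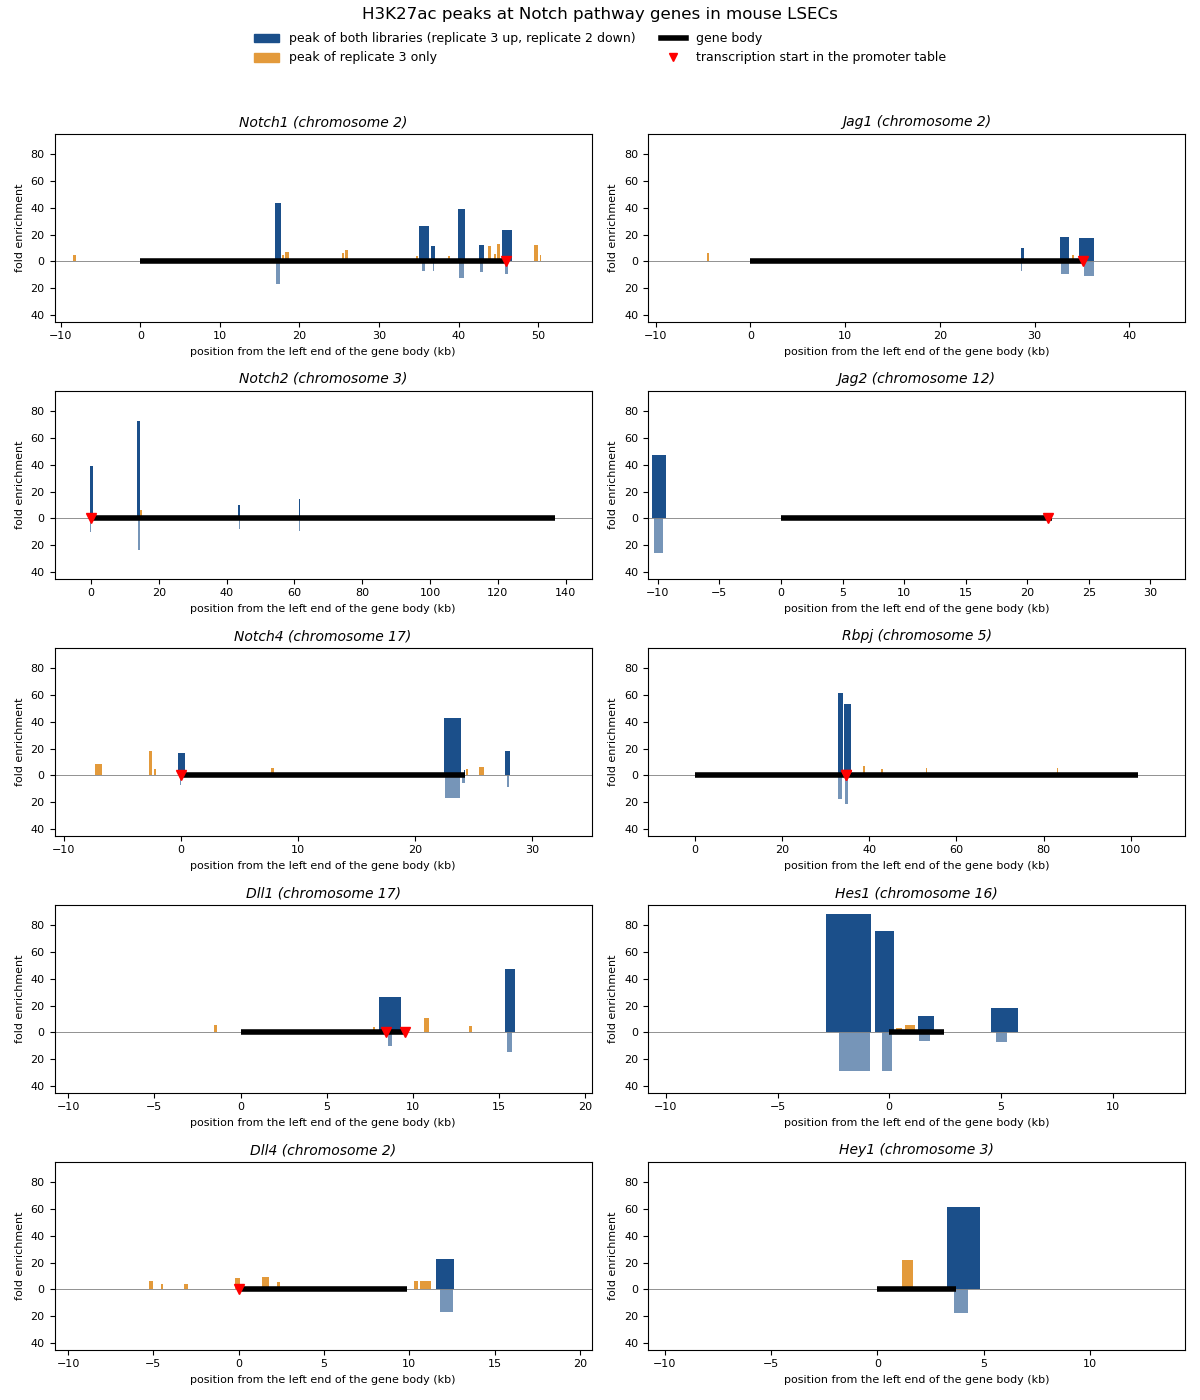
Fold enrichment (vertical axis, ratio) of H3K27ac peaks against position from the left end of each gene body (horizontal axis, kb), with replicate 3 drawn upward and replicate 2 downward; shared peaks are blue, replicate 3 peaks without a partner are orange, the black bar is the gene body, and red triangles are transcription starts of the promoter table, which has none for *Hes1* and *Hey1*. The strongest peaks stand beside *Hes1*, with a fold enrichment of 88.2 in replicate 3.

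Among the ligands, a shared peak at a gene end was present at *Dll1* and *Jag1* but not at *Dll4* or *Jag2*. *Dll1* encodes a Delta-like ligand and lies on chromosome 17 (15367354 to 15376932). Its shared region at chr17:15375403-15376690 was enriched 10.2-fold in replicate 2 and 26.7-fold in replicate 3. It covered the inner of the gene's transcription starts, 1.11 kb inside the gene, and did not reach the outer one. A distal region in the flank, at chr17:15382719-15383293, had 14.9 in replicate 2 and 47.5 in replicate 3. This region, 5.79 kb upstream of the gene, was stronger than the promoter in both libraries. A replicate 3 peak at chr17:15378031-15378294, with a fold enrichment of 11.1, lay 1099 bp outside the gene.

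*Dll4* encodes the ligand that restrains tip cell formation in sprouting vessels, and lies on chromosome 2 (119325784 to 119335666). It had 9 regions in replicate 3 and 1 in replicate 2. At the promoter, the replicate 3 peak at chr2:119325542-119325842 had a fold enrichment of 8.23, at the 46.1st percentile of that list, and replicate 2 listed no peak there. This peak also overlapped the long noncoding RNA gene *Gm14207*, so it cannot be assigned to *Dll4* alone. Past the 3′ end, replicate 3 alone had peaks at chr2:119336084-119336283 and chr2:119336434-119337071, with a fold enrichment of 6.28 and 6.06. Within 10% of their fold enrichment, 13.1% of 5854 peaks overlapped a replicate 2 peak for the promoter, and 5.54% of 7815 and 4.83% of 8470 for the others. At the strength of these *Dll4* peaks, most replicate 3 peaks thus had no partner. The gene's shared region lay 1.69 kb past the 3′ end, at chr2:119337354-119338424, with 17.1 in replicate 2 and 23.0 in replicate 3. It was the strongest region of the gene in each library.

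*Jag1*, the ligand gene mutated in most cases of Alagille syndrome, lies on chromosome 2 (137081451 to 137116520) and had 5 regions, 3 of them shared. The promoter region at chr2:137116098-137117755 was enriched 11.0-fold in replicate 2 and 17.3-fold in replicate 3. It was broad, at 1658 bp, and the strongest points of the peaks, their summits, lay 722 bp apart in the 2 libraries, the largest such distance of the list. Inside the gene, the region at chr2:137114175-137115111 had 9.49 in replicate 2 and 18.2 in replicate 3, and that at chr2:137109962-137110279 had 6.78 and 10.0. The nearer edge of each shared region of *Jag1* thus lay within 6.24 kb of its start. The order of the stronger 2 regions differed between the libraries.

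*Jag2*, the other Jagged ligand, had the fewest regions. On chromosome 12 (112907803 to 112929812) neither library had a peak in the gene body or within 1 kb of an end. Its single region lay 9.38 kb outside the body on the 3′ side, at chr12:112897331-112898422, enriched 25.8-fold in replicate 2 and 47.4-fold in replicate 3. That region was strong in both libraries, at the 91.1st percentile in replicate 2 and the 90.8th in replicate 3. It straddled the 10-kb limit of the window and lay 31.1 kb from the transcription start.

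*Rbpj* encodes the DNA-binding factor through which all Notch receptors act on their targets, and is annotated from 53555779 to 53657445 on chromosome 5. It had no peak within 1 kb of either annotated end in either library. The promoter table places its transcription starts at 53590346 and 53590486, 34.6 and 34.7 kb inside the annotated body. The shared region at chr5:53589959-53591614 covered both starts, enriched 21.0-fold in replicate 2 and 53.4-fold in replicate 3. A region just upstream, at chr5:53588542-53589698, had 17.9 in replicate 2 and 61.4 in replicate 3. *Rbpj* was thus marked at these internal promoters, in both libraries, and counts among the genes without a peak at an end only because the rule uses the outer ends. Counting the starts of the promoter table as gene ends too, an alternative chosen after seeing the data, gave 8 of 10 genes with a shared peak at an end, against 46.3% of all protein-coding genes. The other 4 regions of *Rbpj*, all in replicate 3 only, had a fold enrichment of 5.21 to 6.79 and lay farther into the gene.

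*Hes1* encodes a transcriptional repressor and is a direct target of the pathway in many cell types. It is a short gene on chromosome 16 (30065357 to 30067796, 2.44 kb) and carried the strongest mark of the list. The region at chr16:30064718-30065566, across the left end of the gene, was enriched 28.7-fold in replicate 2 and 76.1-fold in replicate 3. Beside it, 797 bp outside the gene, the region at chr16:30062516-30064560 had 28.5 in replicate 2 and 88.2 in replicate 3. These 2 regions ranked above all others of the list in both libraries, at the 93.7th and 93.5th percentile of replicate 2 and the 96.7th and 97.9th percentile of replicate 3. The region at chr16:30066663-30067376, inside the gene, was weaker, with 6.10 in replicate 2 and 12.1 in replicate 3. The distal region at chr16:30069899-30071130, 2.10 kb past the right end, had 6.78 and 18.6, and overlapped the long noncoding RNA gene *Gm32998*. With 4 shared regions in a window of 22440 bp, *Hes1* had 1.78 shared regions per 10 kb, at the 99.5th percentile of all protein-coding genes, and by count at the 93.6th.

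*Hey1*, a related repressor that acts in arterial and heart development, lies on chromosome 3 (8663359 to 8667038) and had 2 regions. The region at chr3:8666643-8668166, across the right end, was enriched 17.9-fold in replicate 2 and 61.5-fold in replicate 3. Another annotated protein-coding gene, LOC115489673, overlaps it and has an end within 1 kb. Inside *Hey1*, 1148 bp from its end, replicate 3 alone had a peak at chr3:8664507-8665038, with a fold enrichment of 22.1. Of the 2586 replicate 3 peaks within 10% of that strength, 86.4% had a replicate 2 partner. The *Hey1* peak was the strongest unpartnered peak of the list. The shared region therefore cannot be assigned to *Hey1* alone, and with regions near another gene's end left out, or with an overlap of at least 50% of each peak required, *Hey1* had 0 shared regions.

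Both libraries ranked the shared regions of the list in much the same order. Over the 28 regions, Spearman's rho between the fold enrichment of replicates 2 and 3 was 0.891, against 0.843 over all 24199 shared regions. This describes regions that share the libraries and is not a test. The median fold enrichment of the 28 was 10.3 in replicate 2 (range 5.49 to 28.7) and 25.1 in replicate 3 (range 4.30 to 88.2), and over all shared regions it was 10.5 and 27.03. In strength the shared regions of the Notch pathway genes were thus close to shared regions at large. The 40 regions of replicate 3 only were weaker, with a median of 5.88 (range 3.11 to 22.1), against 6.20 over all such regions. They were also narrower, with a median width of 266.5 bp against 893 bp for the shared regions. Over all regions these widths were 256 bp and 701 bp. Some fold enrichments of replicate 2 recurred exactly, such as 6.78 in 4 shared regions and 9.49 in 3, so small differences there do not rank the genes.

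Of the 68 replicate 3 peaks in the windows, 28 overlapped a replicate 2 peak (41.2%), against 37.7% of all replicate 3 peaks, and in the other direction all 30 replicate 2 peaks overlapped a replicate 3 peak. These peaks are not independent of each other, since 18 of the 68 lay at *Notch1* alone. The share rose with strength. Below a fold enrichment of 10 in replicate 3, 1 of 35 peaks had a partner (2.86%), against 6.66% of all replicate 3 peaks of that strength. From 10 to 20 it was 11 of 16 (68.8%), against 47.6%, and from 20 upward it was 16 of 17 (94.1%), against 96.7%. The unpartnered peaks of the list were thus mostly weak peaks of the longer list. At the limit of 1 kb that separates gene ends from distal positions, the nearest regions inside were a replicate 3 peak of *Jag1*, 943 bp from the end, and the shared region of *Hes1* at 797 bp. The nearest outside were the replicate 3 peaks of *Dll1* at 1099 bp and *Hey1* at 1148 bp, and the nearest shared one was that of *Jag1* at 1409 bp.

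Promoter sequences of RefSeq (GRCm38.p6) were found for 8 of the 10 genes, in 10 entries, and not for *Hes1* and *Hey1*. In the 250 bases before the start, the 10 entries had a median of 20.5 CpG dinucleotides and a GC content of 65.4%, against 10 and 55.6% over 21263 entries of protein-coding genes. A shared region lay within 1 kb of the start for 80% of the pathway entries and for 44.7% of all entries. Over all entries this share was 15.7% with 0 to 9 CpGs, 69.1% with 10 to 19, 79.1% with 20 to 39, and 75.6% with 40 or more. In the range that holds the pathway median of 20.5 CpGs, the share over all entries (79.1%) was thus close to the 80% of the pathway entries. Most entries with as few CpGs as *Notch4* had no shared region, and most with as many as *Dll4* or *Jag2* had one, so these 3 genes went against the majority of their range. *Notch4* had 4 CpGs and a shared peak, and *Jag2* had 54 CpGs and no peak in either library. *Dll4* had 14 CpGs and a replicate 3 peak only, and *Notch2*, shown as the CpG-rich promoter with a shared peak, had 34. Their upstream 250 bases are printed 5′ to 3′ with each CpG in capitals, at chr17:34564045-34564294 (plus strand) for *Notch4*, chr12:112929496-112929745 (minus strand) for *Jag2*, chr2:119325534-119325783 (plus strand) for *Dll4*, and chr3:98013288-98013537 (plus strand) for *Notch2*.
*Notch4*: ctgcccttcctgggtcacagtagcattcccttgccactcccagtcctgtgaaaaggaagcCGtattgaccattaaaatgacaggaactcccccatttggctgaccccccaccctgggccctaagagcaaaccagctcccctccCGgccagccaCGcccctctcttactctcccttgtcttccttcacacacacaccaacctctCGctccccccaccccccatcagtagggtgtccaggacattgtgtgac
*Jag2*: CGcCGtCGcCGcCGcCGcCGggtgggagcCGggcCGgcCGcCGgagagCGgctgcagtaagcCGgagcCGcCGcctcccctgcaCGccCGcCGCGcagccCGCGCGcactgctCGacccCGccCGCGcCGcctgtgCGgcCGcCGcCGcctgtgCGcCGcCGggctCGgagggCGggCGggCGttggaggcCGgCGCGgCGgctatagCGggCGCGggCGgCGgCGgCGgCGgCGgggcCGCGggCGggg
*Dll4*: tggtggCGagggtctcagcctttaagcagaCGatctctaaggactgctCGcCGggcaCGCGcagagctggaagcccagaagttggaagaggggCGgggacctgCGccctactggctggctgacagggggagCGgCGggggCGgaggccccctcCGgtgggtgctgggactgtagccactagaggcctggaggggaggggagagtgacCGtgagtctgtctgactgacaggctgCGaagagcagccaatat
*Notch2*: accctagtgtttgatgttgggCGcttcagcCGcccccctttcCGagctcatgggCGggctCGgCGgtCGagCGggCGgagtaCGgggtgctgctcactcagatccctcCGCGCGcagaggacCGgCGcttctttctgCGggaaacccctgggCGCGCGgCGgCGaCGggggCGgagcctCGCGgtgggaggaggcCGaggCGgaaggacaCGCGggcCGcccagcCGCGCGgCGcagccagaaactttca
The 300 bases around each start (250 before and 50 after) were searched on both strands for the RBPJ motif GTGGGAA, the E-box CACGTG bound by Hes and Hey proteins, and the ETS motif CCGGAAG. They were present in 6.38%, 7.15%, and 8.86% of 32851 promoters, and in 0 of the 10 entries of the pathway genes. These letters are thus not in these windows, which says nothing of binding elsewhere.

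A list of 42 other genes of the pathway, also chosen with earlier results of these data known, was counted in the same way. A shared peak at a gene end was present at 30 of the 42 (71.4%), near the 70% of the 10 genes above and against 43.4% of all protein-coding genes. All 6 coactivators and all 4 corepressors had one, as did 6 of 9 genes of receptor cleavage, 4 of 5 of receptor glycosylation, 2 of 4 of ligand ubiquitination, 7 of 9 of receptor turnover and inhibition, and 1 of 3 further targets. The remaining receptor *Notch3*, known from mural cells, had no peak at an end, and neither did *Aph1b*, a γ-secretase subunit, *Dtx1*, a Deltex ubiquitin ligase, or the targets *Hes5* and *Heyl*. With the further receptor, ligand, and targets of this list (*Notch3*, *Dll3*, *Hes5*, *Hey2*, and *Heyl*) added to the 10 genes, a grouping made after the values were seen, 8 of 15 genes had a shared peak at an end (53.3%), against 43.4% of all genes, so the 70% depends on which genes are counted. In replicate 3 alone, 37 of the 42 had a peak at an end, against 53.9% of all genes. At 7 genes, a peak lay within 1 kb of an end in replicate 3 only. Whether it overlapped a replicate 2 peak centred farther out was not examined. The highest fold enrichment of such a replicate 3 peak was 4.88 at *Dll3*, 5.97 at *Psen2*, 14.3 at *Mfng*, and 4.85 at *Neurl1a*. It was 7.16 at *Neurl1b*, 4.06 at *Dtx3*, and 52.2 at *Furin*, which encodes the protease that processes the receptor precursor. A shared distal region was present at 25 of the 42 (59.5%), against 39.9% of all genes, and among the genes with the most were *Maml2* with 16, *Maml3* with 11, and *Psen2* and *Numb* with 4 each. *Notch1*, with 5 shared distal regions, was exceeded by *Maml2* and *Maml3*, which encode coactivators of the Notch complex.

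These counts depend on what is called shared. When the peaks had to overlap by at least 50% of each, 3 of the 10 genes (30%) rather than 7 had a shared peak at a gene end, against 22.0% of all protein-coding genes, and 11 rather than 30 of the other pathway genes did. Under that rule the shared regions fell from 6 to 2 at *Notch1*, from 4 to 1 at *Notch4*, and from 2 to 1 at *Rbpj*, while *Notch2* and *Hes1* each kept 3 of 4. With a single condition and 2 libraries no difference was tested, and a histone mark near a gene is not a measure of its expression.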

How the data were processed

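H3K27ac ChIP-Seq peaks of 2 LSEC libraries were analysed. The authors made 1 peak list per library and did not pool the replicates. Per the labels, the tools were cutadapt 0.4.4, BWA 0.7.17, Picard 1.67, MACS2 2.0.10, and bedtools 2.27.1, with build mm10. Each deposited list gives the fold enrichment, a ratio of peak signal to local background. The deposited lists also give the −log10 p-value, the −log10 q-value, a score that is 10 times the latter, and the other value used here, the summit position. The lowest −log10 q-value listed was 2.04 (replicate 2) and 2.01 (replicate 3). Whether the inputs entered the calls was not established, and the depth is unknown, since the lists hold no read counts. Overlapping peaks were merged into regions, which count as at a gene end where the peaks of each library they hold lie within 1 kb of either end of the gene, and otherwise as distal. A region with several peaks of a library takes the strongest. Starts were raised by 1 to count from 1. Gene bodies came from the GRCm38 gene table, and transcription starts from the RefSeq promoter table. The members and lists were chosen with earlier results of these data known. All members were named, and of the other pathway genes those without a peak at an end, those with one in 1 library, and the 5 with the most shared distal regions, of which 1 is not reported here. LSEC markers without a shared end peak and other markers with one were named by rule, and the other markers named were chosen after their values were seen. Python 3.11.15 with pandas 2.3.3, numpy 2.4.6, and scipy 1.17.1 was used, and the counting was tested on simulated data. Alternatives covered the q-value, list length, overlap, end distance, end used, flank, neighbouring genes, and each replicate.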

Additional observations from a re-analysis of the deposited data

How the results depend on the processing

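The count of genes with a shared peak at an end (7) and the count of other pathway genes (30) moved by more than 1.5 times in 1 setting only. Requiring an overlap of at least 50% of each peak gave 3 and 11, with 5 regions at gene ends in place of 11, 9 distal regions in place of 17, and 20.6% of replicate 3 peaks with a partner in place of 41.2%. Cutting both lists to their strongest 26975 peaks raised that share to 87.1%. Using 5′ ends only, for the 8 members and 32 other genes with an entry in the promoter table, left 7 regions at gene ends. A flank of 50 kb gave 34 distal regions. Leaving out a replicate gave 11 to 19 regions at gene ends and 17 to 49 distal regions, the higher values from replicate 3 alone, whose list is longer. The cause of the other shifts was not tested. Of all 161 alternatives over 15 results and 11 settings, 43 of the main values stayed the same and 10 moved, and for the region counts of single genes 87 stayed the same and 21 moved. Of the latter, 5 fell to 0, at *Dll1*, *Dll4*, *Jag2*, and, in 2 settings, *Hey1*. The share of members with a shared peak at an end exceeded that of all genes in each of the 11 settings, by least with 50% overlap (30% against 22.0%). Not all settings could change this comparison. A flank of 50 kb cannot alter a call made within 1 kb of an end. Replicate 2 alone nearly repeats the shared call, with 9498 of all genes called against 9491. Counting starts of the promoter table as ends, chosen after seeing the data, gave 8 genes, 13 end regions, 15 distal regions, and 33 other pathway genes, with 46.3% of all genes. No paired analysis was possible because there was a single condition and no test. Depth is unknown, so where replicate 2 lists no peak, absence of the mark is not shown.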
